A study of Mus musculus with 12 samples.

Results

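The neuregulins and ligands of the epidermal growth factor (EGF) family were described by 8 genes, Nrg1, Nrg2, Nrg3, Nrg4, Hbegf, Tgfa, Egf and Btc, in subcortical white matter of 12 mice. The genes were chosen by symbol, and a symbol carried by several loci of the expression table was read from the locus with the highest mean level. All 8 were found among the 33864 loci of the table, and 5 of them reached the level needed for a test. There were 4 groups of 3 mice. The dnEGFR mutants had the genotype Sox10-tTA;TRE-dnEGFR, that is, a tetracycline transactivator under Sox10 control and a responder transgene for a dominant-negative EGF receptor, and their littermate controls carried TRE-dnEGFR alone. The ErbB2V664E mutants had the genotype Sox10-tTA;TRE-ErbB2V664E, with a responder for an activated form of the ErbB2 receptor, and their littermate controls carried TRE-ErbB2V664E alone. Every mouse received doxycycline from postnatal day 21, to day 35 in the dnEGFR line and to day 30 in the ErbB2V664E line, and was sampled at the end of it. Sox10 marks the oligodendrocyte lineage, the cells that make central myelin, so the ligands were measured in whole tissue around the cells to which Sox10 control directs the transactivator. No group carried the transactivator alone, and the labels do not state whether doxycycline turned the responders on or off.

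Ligands of this family are made as membrane-anchored precursors, and proteases of the ADAM and BACE families release or expose the part with the EGF-like domain. EGF and transforming growth factor alpha bind EGFR, heparin-binding EGF-like growth factor and betacellulin bind EGFR and ErbB4, and the neuregulins bind ErbB3 and ErbB4. ErbB2 has no ligand of its own and pairs with the other receptors. Neuregulin 1 on axons is best known as a signal that sets myelin thickness around peripheral nerves, and its genes are expressed by many neurons of the brain.

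Expression was given as FPKM, fragments per transcript length and sequencing depth, so levels of different genes can be compared per length. Depth was estimated from the values at 16596899 to 24739635 fragments a library, and 1 FPKM in a transcript of 2 kb stood for 33.2 to 49.5 of them. This estimate and the fragment numbers built on it are rough. Markers of oligodendrocytes summed to 744.3 to 1977 FPKM over 12 genes and markers of neurons to 884.6 to 1261 over 18, so the dissected tissue held much neuronal RNA as well. Striatal projection neuron markers (13 genes) summed to 148.8 to 458.7 FPKM, astrocyte markers (12) to 249.2 to 472.3, microglial markers (12) to 67.9 to 154.9 and oligodendrocyte precursor markers (8) to 23.5 to 56.9. Endothelial and mural markers (13) lay at 88.0 to 124.3, and ependymal markers (6) at 13.9 to 26.6. Choroid plexus markers (7) ranged from 12.2 to 714.8 and red blood cell genes (5) from 22.1 to 279.1, the widest relative ranges of the lists. ErbB2V664E mutant 1 stood apart from the other mutants of its group, and without it 262 loci were called in that line where 38 were with it. In whole tissue, fewer cells of a type and less RNA per cell cannot be told apart.

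With 1 locus read for each symbol, transforming growth factor alpha and heparin-binding EGF-like growth factor had the highest levels, in that order in all 12 libraries. Mean levels over the 12 libraries were 8.82 FPKM for Tgfa and 3.82 for Hbegf, above 91.4% and 80.7% of all loci. Together they made up 57.3% to 83.3% of the summed FPKM of the 8 ligand genes, with a median of 73.05%. That order depends on how Nrg1 is read, since its symbol is spread over 8 loci. With all loci of each symbol summed, Nrg1 was above Hbegf in every library and above Tgfa in 5 of the 6 libraries of the ErbB2V664E line, and Tgfa and Hbegf together made up 51.9% to 71.4% in the dnEGFR line and 32.8% to 54.4% in the ErbB2V664E line. Most of these Nrg1 loci match no reference transcript, as described with the gene. FPKM is per length, so a transcript split over several loci would be counted more than once in such a sum. Whether these loci are parts of the same transcript was not tested, so the summed order may place Nrg1 too high. Read from 1 locus each, the neuregulin genes followed at means of 1.76 (Nrg1), 1.24 (Nrg2), 0.96 (Nrg3) and 0.615 (Nrg4), and their order differed between libraries. Egf itself, at 0.126 FPKM, and Btc, at 0.0812, were the lowest in every library.

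None of the 5 tested ligand genes was called in any comparison after adjustment over all 13803 tested loci (limma on log2(FPKM + 1), Benjamini-Hochberg, threshold 0.05). In dnEGFR mutants against controls 0 of 5 were called, where 0.0942% of all loci were (13 loci, or 3 with litter as a block), and 0 had an unadjusted p under 0.05, where 5.69% of all loci did. In ErbB2V664E mutants against controls 0 of 5 were called, against 0.275% of all loci (38, or 7 with the block), and 2 had an unadjusted p under 0.05, against 12.1%. For the difference between these effects 0 of 5 were called, against 0.116% (16 loci, or 4 with the block), and 3 had an unadjusted p under 0.05, against 9.01%. The median log2 change of the 5 was 0.07 in the dnEGFR line and 0.08 in the ErbB2V664E line, where the median over all loci was 0.01 and 0.00. The intervals given with each gene show which sizes of change the data allow on the log2(FPKM + 1) scale only. That scale understates changes of genes near 1 FPKM, such as the neuregulin genes. With 0.1 added in place of 1, the dnEGFR changes of Nrg1 and Nrg3 were -0.76 and -0.60 in place of -0.41 and -0.31.

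**Figure D1:**
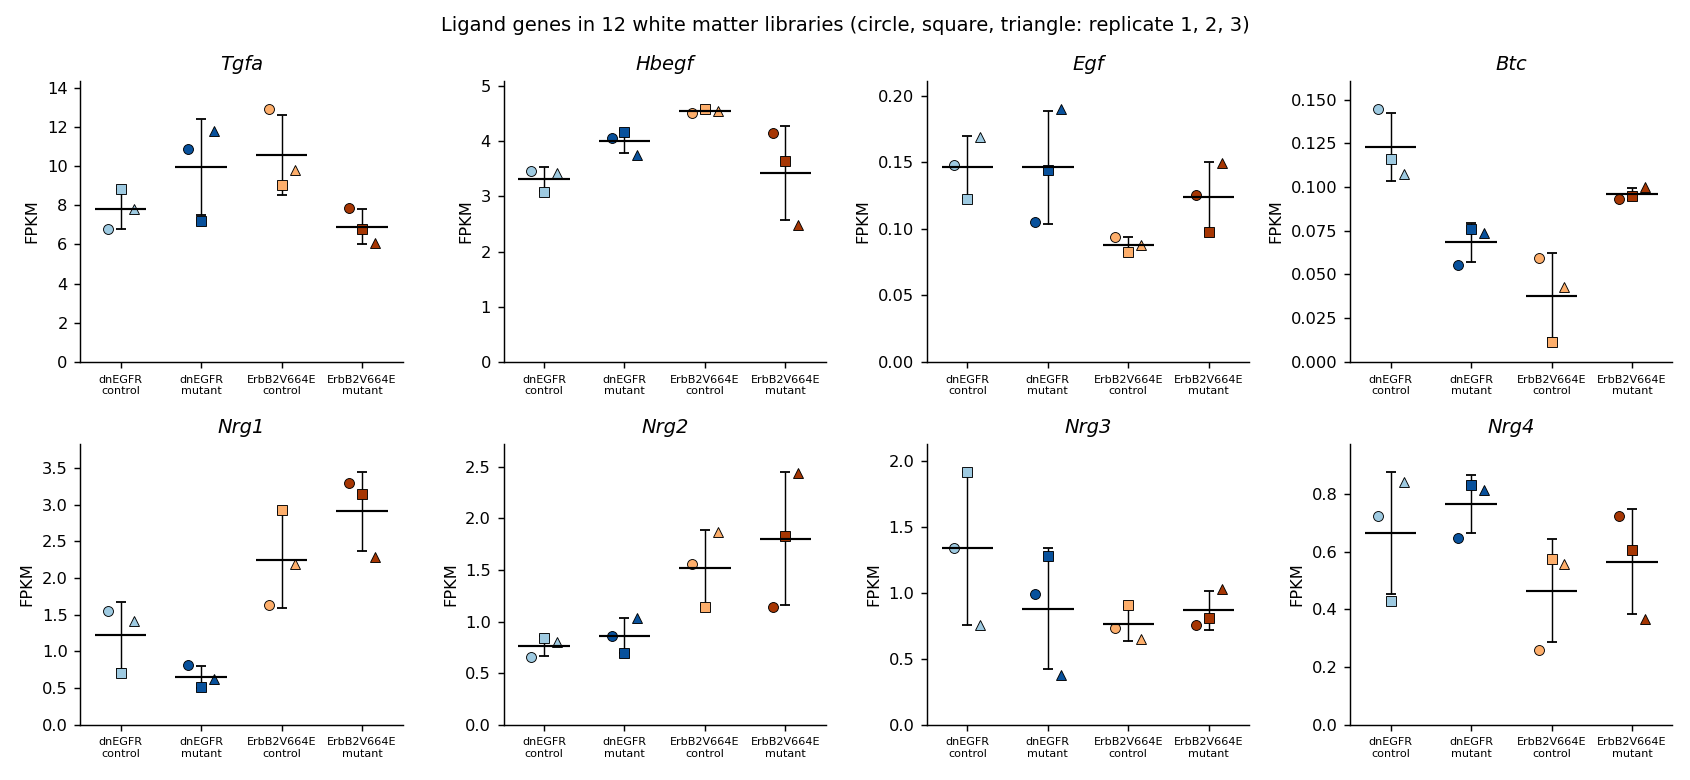
FPKM (y axis, a scale of its own for each gene) of the 8 ligand genes in each library, by group along the x axis, where each symbol is a library, the wide bar is the mean and the thin bar spans 1 SD each way (n = 3). Tgfa lies between 6.07 and 12.9 FPKM, while Btc stays at or below 0.145.

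Tgfa encodes transforming growth factor alpha, a ligand of EGFR. Tgfa was at 12.9, 9.03 and 9.80 FPKM in the ErbB2V664E controls and at 7.86, 6.79 and 6.07 in the mutants of replicates 1, 2 and 3. Every mutant of this line was below every control, by a ratio of means of 0.652. The fitted log2 change was -0.54 (SE 0.19, 95% interval -0.96 to -0.13), with an unadjusted p of 0.0158 and an adjusted p of 0.265 in limma. Over the 13 alternatives run the change lay between -0.64 and -0.40, at adjusted p of 0.181 (without mutant 1) to 0.542. Several alternatives leave the estimate unchanged by construction. With every mutant below every control, leaving out 1 library could not reverse the sign, so its constancy adds nothing to the separation.

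In the dnEGFR line Tgfa was at 6.80, 8.83 and 7.83 FPKM in controls and 10.9, 7.21 and 11.8 in mutants. Mutants 1 and 3 were above all controls and mutant 2 lay among them (log2 change 0.29, SE 0.19, interval -0.12 to 0.71, limma adjusted p = 0.964). The change was 0.17 without mutant 3 and 0.49 without mutant 2. The summed level of the 13 striatal markers was likewise high in mutants 1 and 3 (389.8 and 433.9 FPKM) and lower in mutant 2 (182.5), with the controls at 196.0, 227.9 and 148.8. The library with the most Tgfa, ErbB2V664E control 1, also had the highest striatal sum, 458.7, against 258.8 and 249.1 in the other controls of that line. The ErbB2V664E mutants departed from this, with striatal sums of 269.6, 278.1 and 355.2 and the 2 lowest Tgfa values of the series in mutants 2 and 3. The part of striatal RNA in the level of Tgfa was not tested.

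**Figure D2:**
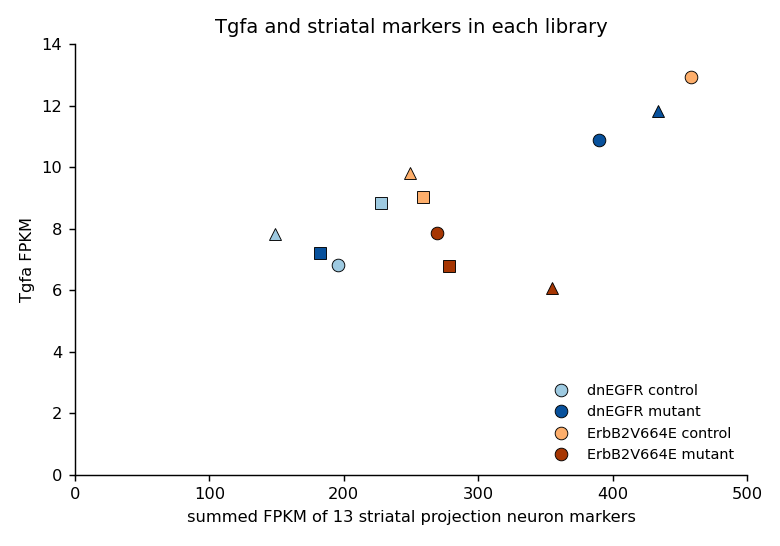
Tgfa FPKM (y axis) against the summed FPKM of 13 striatal projection neuron markers (x axis) in each of the 12 libraries, colored by group, with circle, square and triangle for replicates 1, 2 and 3. The 3 libraries with the highest striatal sums have Tgfa at 10.9, 11.8 and 12.9, and ErbB2V664E mutant 3, with a striatal sum of 355.2, has 6.07.

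Hbegf encodes heparin-binding EGF-like growth factor, which is anchored in the membrane until it is shed. Its locus held 1 reference transcript of 2375 bases, so its values stand for an estimated 128.8 to 233.2 fragments a library. Hbegf was at 3.46, 3.07 and 3.42 FPKM in dnEGFR controls and 4.07, 4.17 and 3.76 in dnEGFR mutants, and the groups did not overlap. The log2 change was 0.21 (SE 0.13, interval -0.07 to 0.49, limma adjusted p = 0.953).

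Among ErbB2V664E mice Hbegf was at 4.51, 4.58 and 4.54 FPKM in controls, which were very even, and at 4.15, 3.65 and 2.49 in mutants. All mutants were below all controls, with mutant 3 the lowest (-0.34, SE 0.13, interval -0.63 to -0.06, unadjusted p = 0.0219, limma adjusted p = 0.307). Without mutant 3 the change was -0.18 (adjusted p = 0.543), and over the 13 alternatives it lay between -0.46 and -0.18, at adjusted p of 0.101 to 0.543. Groups of mutants and controls did not overlap, with mutants higher, at 1 of the 5 tested ligand genes in the dnEGFR line (5.58% of all loci). With mutants lower they did not overlap at 2 of 5 in the ErbB2V664E line (8.96%). Hbegf was higher in all dnEGFR mutants and lower in all ErbB2V664E mutants, an orientation found at 79 tested loci, or 0.572%.

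Markers of cell types were described in the same ErbB2V664E mutants, and Mag was the only one of them called. Median log2 changes there were -0.77 over 12 oligodendrocyte markers (12 negative, Mag called lower), -0.47 over 12 microglial markers (11 negative), -0.21 over 11 astrocyte markers (8 negative) and -1.57 over 5 red blood cell genes (5 negative). Striatal markers had a median of -0.17 over 13 genes, endothelial and mural markers 0.10 over 13 and neuronal markers 0.03 over 18. Precursor, ependymal and choroid plexus markers had medians of -0.26, -0.41 and -0.65 over 8, 5 and 6 genes. All mutants were below all controls at 7 of 12 oligodendrocyte, 4 of 12 microglial and 3 of 11 astrocyte markers (8.96% of all loci). The same held at 3 of 8 precursor, 2 of 5 ependymal, 0 of 6 choroid plexus and 0 of 5 red blood cell genes. No share over all loci was computed for the signs and medians, so they are a description only. Microglial markers summed to 114.3, 77.0 and 67.9 FPKM in mutants 1, 2 and 3 and to 109.3 to 144.3 in controls, in the order that Hbegf showed among the mutants. Ependymal and red blood cell sums fell in that order as well, and those of the other cell types did not. In dnEGFR mutants 1, 2 and 3 the microglial sums were 154.9, 102.4 and 138.2, an order that Hbegf did not follow (4.07, 4.17 and 3.76). The part of these cell types in the levels of Tgfa and Hbegf was not tested.

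**Figure D3:**
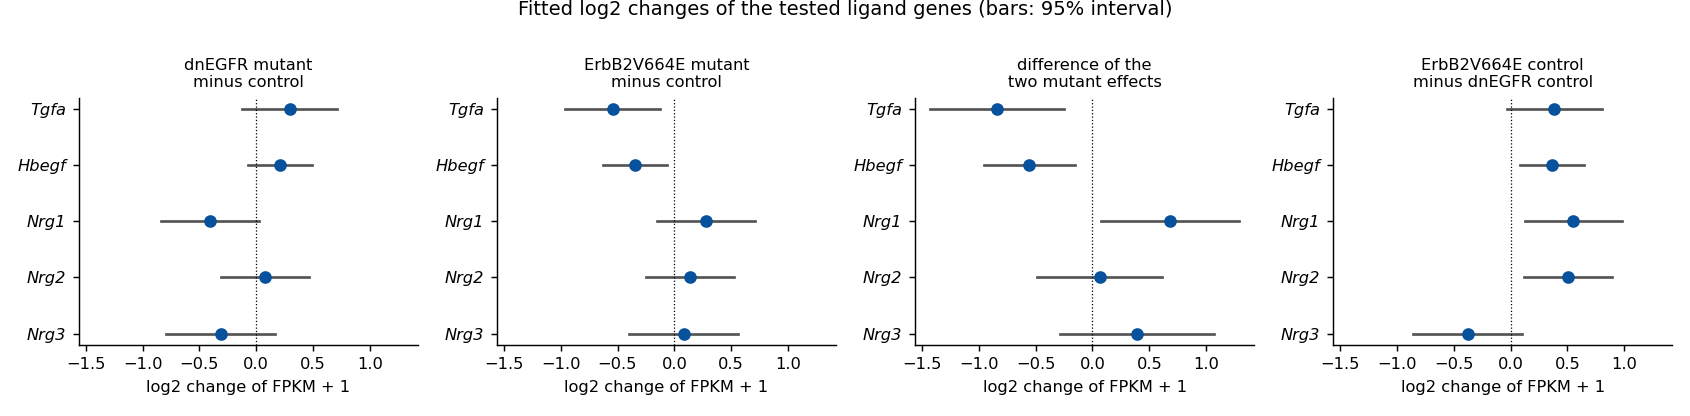
Fitted log2 changes of FPKM + 1 (x axis) of the 5 tested ligand genes (y axis) in 4 comparisons, with points for the estimate and bars for the 95% interval from limma over 12 libraries. Intervals of Tgfa and Hbegf lie below 0 in ErbB2V664E mutants, yet no adjusted p was under 0.05.

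The difference between the mutant effects of the lines asked whether the ErbB2V664E and dnEGFR genotypes went with different changes of ligand levels. Tgfa had a difference of -0.84 (ErbB2V664E effect minus dnEGFR effect, SE 0.26, interval -1.43 to -0.25) and Hbegf one of -0.55 (SE 0.18, interval -0.95 to -0.16), each with a limma adjusted p of 0.422. Nrg1, read from a locus that matches no reference transcript, had 0.68 in the other direction (interval 0.08 to 1.29, adjusted p = 0.511). Its locus with reference transcripts had -0.46 (limma adjusted p = 0.755), so no direction is given for Nrg1. Nrg3 and Nrg2 were at 0.40 and 0.06, with adjusted p of 0.732 and 0.96, and Nrg3 was at 0.19 without dnEGFR mutant 3 and 0.22 without dnEGFR control 2. The effects were not shown to differ between the lines for any of the 5. Line, age and length of treatment cannot be told apart in this difference.

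Egf and Btc were close to the limit of detection. Egf encodes the precursor of EGF itself and was at 0.148, 0.123 and 0.169 FPKM in dnEGFR controls and 0.105, 0.144 and 0.19 in dnEGFR mutants, which overlapped. Among ErbB2V664E mice Egf was at 0.0943, 0.0824 and 0.088 in controls and 0.125, 0.0979 and 0.15 in mutants, with every mutant above every control, as at 9.49% of 5796 loci below the test level and above 0 in every library (exact two-sided permutation p = 0.1, the smallest that 3 against 3 allows). Depending on the transcript taken, these levels stand for 0.8 to 19.9 fragments a library.

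Btc encodes betacellulin. It was at 0.145, 0.116 and 0.107 FPKM in dnEGFR controls and 0.0555, 0.0758 and 0.0738 in dnEGFR mutants, where all mutants were lower, as at 5.43% of those low loci. In the ErbB2V664E line it was at 0.0594, 0.0116 and 0.0428 in controls and 0.0929, 0.0951 and 0.0997 in mutants, where all mutants were higher. Each comparison had an exact permutation p of 0.1. The levels stand for an estimated 0.6 to 10.7 fragments, so a few fragments decide each value. Separation in opposite directions in the lines was seen at 52 of the 5796 low loci, or 0.897%. Btc has Areg as its direct neighbour among protein-coding genes (RefSeq, GRCm38.p6), with Ereg and Epgn next in the same cluster of EGF family genes. Areg (amphiregulin) and Epgn (epigen) were as low, at 0 to 0.366 and 0 to 0.111 FPKM.

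Nrg1 needs a caution about its locus. The symbol was carried by 8 loci of the table, and the one with the highest mean holds a single assembled transcript that matches no reference transcript. It was at 1.55, 0.699 and 1.41 FPKM in dnEGFR controls and 0.815, 0.52 and 0.629 in dnEGFR mutants (log2 change -0.41, SE 0.19, interval -0.83 to 0.02, limma adjusted p = 0.894). For ErbB2V664E mice the values were 1.63, 2.93 and 2.19 in controls and 3.29, 3.14 and 2.29 in mutants (0.28, interval -0.15 to 0.71, adjusted p = 0.611). Groups overlapped in each line, and the ErbB2V664E value was 0.13 without control 1 and 0.42 without control 2.

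The locus of Nrg1 with 12 reference transcripts gave another picture. It was at 0.727, 0.248 and 0.295 FPKM in dnEGFR controls and 0.391, 1.36 and 0.219 in mutants, a log2 change of 0.17 (limma adjusted p = 1). For ErbB2V664E mice the values were 0.758, 1.03 and 1.03 in controls and 0.332, 1.21 and 0.343 in mutants, a change of -0.29 (adjusted p = 0.73). Mutant 2 of each line was high and its other mutants low. The sign of the Nrg1 change was thus opposite to that of the unmatched locus in both lines, and no direction is given for the gene.

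The 7 unmatched Nrg1 loci were all higher in the ErbB2V664E line. Their summed level was 3.52 to 5.06 FPKM in the 6 dnEGFR line libraries and 9.35 to 14.1 in the 6 ErbB2V664E line libraries. Such a sum would count a transcript split over several loci more than once. Between the controls all 7 were higher in the ErbB2V664E line, without overlap, by 0.46 to 0.79 on the log2 scale, and 6 of the 7 passed the threshold, where 20.0% of all loci did (limma adjusted p 0.000632 to 0.0697). Of the 7, 5 were under 1 FPKM in all 6 dnEGFR line libraries, and the others reached it there in fewer than the 3 libraries needed. All 7 thus needed the line in which they were high to enter the test, and their count supports no statement. The locus with reference transcripts was also higher there, by 0.46, without passing (adjusted p = 0.278). In ErbB2V664E mutants against controls the 7 had changes of 0.11 to 0.34, and 0 passed (adjusted p 0.242 to 0.764). They share 1 symbol and are not replicates of each other. Over 968 loci that carry a symbol but no reference transcript, the median log2 difference between the controls was -0.03. Of these, 90 were called higher and 83 lower in the ErbB2V664E controls. The median was 0.02 over 12234 loci with a reference transcript. A median does not describe single loci, and the cause of the difference at the Nrg1 loci was not tested.

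**Figure D4:**
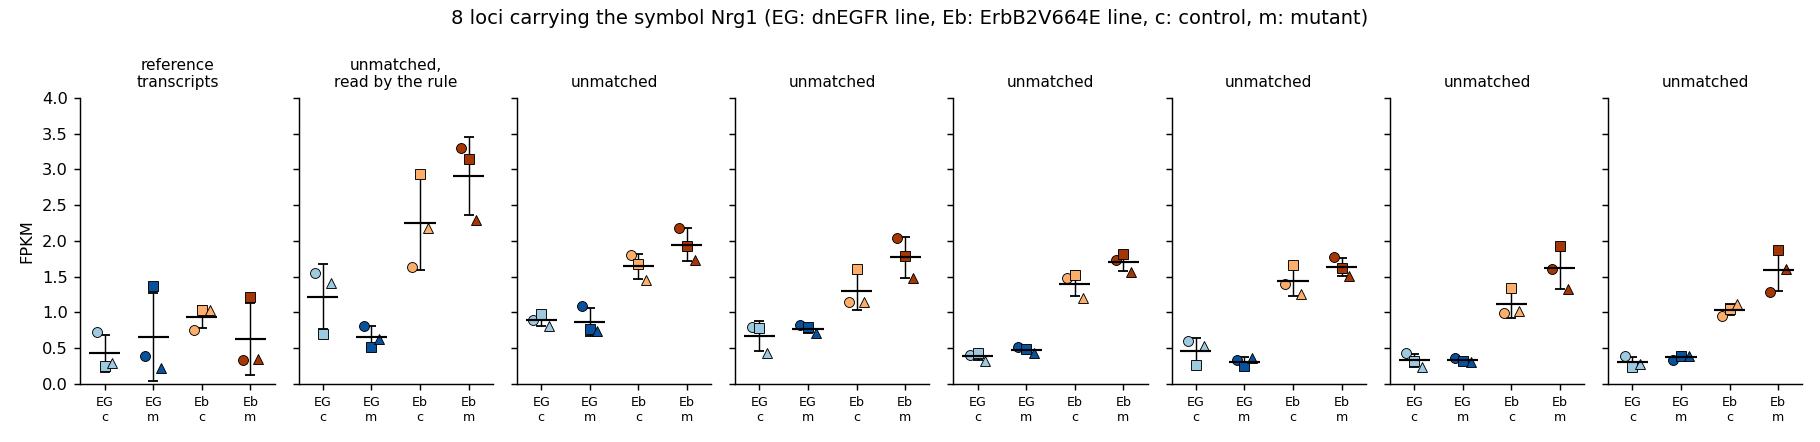
FPKM (y axis) of the 8 loci with the symbol Nrg1, the leftmost with reference transcripts and the others unmatched, by group (EG, dnEGFR line; Eb, ErbB2V664E line; c, control; m, mutant), where each symbol is a library, the wide bar is the mean and the thin bar spans 1 SD each way (n = 3). All 7 unmatched loci are higher in ErbB2V664E controls than in dnEGFR controls, while the matched locus varies between mutants.

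Nrg2, a neuregulin expressed by neurons, was read from a locus with 3 reference transcripts. It was at 0.657, 0.842 and 0.801 FPKM in dnEGFR controls and 0.859, 0.695 and 1.04 in dnEGFR mutants (log2 change 0.07, SE 0.17, interval -0.31 to 0.46, limma adjusted p = 1). The ErbB2V664E line had 1.56, 1.14 and 1.87 in controls and 1.14, 1.83 and 2.44 in mutants (0.14, interval -0.25 to 0.52, adjusted p = 0.808). Leaving out 1 library gave 0.01 (without mutant 3) to 0.14 (without mutant 2) in the dnEGFR line and -0.0234 (without mutant 3) to 0.32 (without mutant 1) in the ErbB2V664E line. Mutants and controls overlapped in each line, and all 6 libraries of the ErbB2V664E line were above all 6 of the dnEGFR line. Nrg2 passed the test level mainly through the ErbB2V664E line, and the share of all loci with such a separation was not computed. The separation therefore supports no statement. A second, unmatched locus of Nrg2 was at 1.33 to 1.75 FPKM in the ErbB2V664E line and was listed at 0 in 4 of the 6 dnEGFR line libraries, with 0.811 and 0.696 in the other two.

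Nrg3, a neuregulin that acts through ErbB4, was at 1.34, 1.91 and 0.753 FPKM in dnEGFR controls and 0.986, 1.28 and 0.374 in dnEGFR mutants (log2 change -0.31, SE 0.22, interval -0.79 to 0.17, limma adjusted p = 0.975). The change was -0.10 without mutant 3, -0.14 without control 2 and -0.51 without control 3. In the ErbB2V664E line Nrg3 was even, at 0.734, 0.907 and 0.647 in controls and 0.756, 0.807 and 1.03 in mutants (0.08, interval -0.40 to 0.56, adjusted p = 0.925), with 0.02 without mutant 3 and 0.14 without control 2. Nrg4, a neuregulin best known from adipose tissue, was below the test level in every library, at 0.43 to 0.842 FPKM in dnEGFR controls, 0.649 to 0.831 in dnEGFR mutants, 0.258 to 0.576 in ErbB2V664E controls and 0.366 to 0.724 in ErbB2V664E mutants. Mutants and controls overlapped in each line, with exact permutation p of 0.7 and 0.5 in the dnEGFR and ErbB2V664E lines.

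Within litters, the mutant was below its littermate in 3 of 3 dnEGFR litters for Nrg1, Nrg3 and Btc and above it in 3 of 3 for Hbegf. In the ErbB2V664E line it was below in 3 of 3 litters for Hbegf and Tgfa and above in 3 of 3 for Nrg1, Egf and Btc. The remaining gene and line combinations had litters of either sign. Nrg1 is read here from its unmatched locus. At its locus with reference transcripts, mutant 2 of each line was above its littermate and mutants 1 and 3 were below. No share over all loci was computed for these signs, so they are a description only.

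The order of the groups differed between ligand genes. Tgfa descended from ErbB2V664E controls (10.6 ± 2.06 FPKM, SD, n = 3) over dnEGFR mutants (9.97 ± 2.44) and dnEGFR controls (7.82 ± 1.01) to ErbB2V664E mutants (6.91 ± 0.903), and each neighbouring pair overlapped. Hbegf was highest in ErbB2V664E controls (4.54 ± 0.0386), which did not overlap with the dnEGFR mutants next to them (4.00 ± 0.214), while ErbB2V664E mutants (3.43 ± 0.855) and dnEGFR controls (3.32 ± 0.212) overlapped. For Nrg1 and Nrg2 the gap without overlap lay between the lines, with ErbB2V664E mutants highest at 2.91 ± 0.541 and 1.80 ± 0.648. Both genes passed the test level mainly through the ErbB2V664E line. Nrg3 and Nrg4 were highest in a dnEGFR group, at 1.34 ± 0.58 in the controls and 0.764 ± 0.101 in the mutants, and all neighbouring groups overlapped.

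Controls of the lines were also set against each other. Of the 5 tested ligand genes 0 were called between ErbB2V664E and dnEGFR controls, where 20.0% of all loci were, and 3 had an unadjusted p under 0.05, against 34.3%. Nrg1 (log2 difference 0.55, limma adjusted p = 0.0697), Nrg2 (0.50, 0.0673), Hbegf (0.36, 0.0708) and Tgfa (0.39, 0.178) were higher in every ErbB2V664E control than in any dnEGFR control, a separation found at 21.6% of all loci. The difference of Tgfa was 0.25 without ErbB2V664E control 1. Nrg3 had -0.38 (adjusted p = 0.25) with overlap, and Nrg4 overlapped as well. Egf (means of 0.0882 against 0.147 FPKM) and Btc (0.0379 against 0.123) were lower in every ErbB2V664E control, as were 13.1% of the low loci. Nrg1 and Nrg2 passed the test level mainly through the ErbB2V664E line, so the count over the genes that passed supports no statement. When the loci of a symbol were summed, Nrg1 and Nrg2 were higher in ErbB2V664E controls by 1.10 and 1.08, with adjusted p of 0.00114 and 0.00213, where the other alternatives gave 0.0482 to 0.278 and 0.0515 to 0.198. Without ErbB2V664E control 1 the unmatched locus of Nrg1 passed as well (0.69, adjusted p = 0.0482). Line, age, litter and length of treatment cannot be told apart here.

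Among 4761 loci with 1 symbol, a reference transcript and a mean of at least 5 FPKM, those most like each ligand gene were taken by Pearson correlation of log2(FPKM + 1) over the 12 libraries, as a description. The libraries share groups and lines, so the value after removal of each group's mean is given second. Tgfa was most like Tesc, a calcium-binding regulator (0.89; within groups 0.94), followed by the GTPase gene Hras (0.86; 0.73) and the long RNA gene 9430020K01Rik (0.85; 0.70). Hbegf was most like the microRNA locus Mir6982 (0.91; 0.89), the peroxisomal gene Pex6 (0.88; 0.93) and Tmcc3 (0.87; 0.80). Nrg1 was most like Csnk2b, a subunit of casein kinase II (0.96; 0.68), Fam160b1 (0.95; 0.73) and the ubiquitin ligase gene Smurf1 (0.93; 0.54), so the likeness was lower within groups. Nrg2 was most like the histone methyltransferase gene Kmt2b (0.97; 0.95), Fkbp8 (0.96; 0.88) and Fam120aos (0.95; 0.87). Nrg3 was most like Ssr1 (0.85; 0.86), Ccdc91 (0.83; 0.97) and Anp32a (0.83; 0.87).

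Among the receptors, Erbb3 had the widest separation in the ErbB2V664E line. Erbb3, a neuregulin receptor of the oligodendrocyte lineage, was at 8.23, 7.75 and 9.29 FPKM in ErbB2V664E controls and 4.57, 2.78 and 2.04 in mutants (log2 change -1.23, limma adjusted p = 0.081). Egfr had a mean of 1.94 in those controls and 1.39 in the mutants, without overlap (-0.30, adjusted p = 0.202). Erbb4 was uneven within that line, with 0.501 in control 3 and 0.218 in mutant 3 against 3.18 to 4.09 in the others. In the dnEGFR line Erbb3, Egfr and Erbb4 had log2 changes of -0.40, -0.04 and -0.25, and Erbb2 stayed below the test level with 0.316 to 0.97 FPKM over all libraries. Of the 3 tested receptor genes 0 were called in either mutant comparison, with 0 at an unadjusted p under 0.05 in the dnEGFR line (5.69% of all loci) and 2 in the ErbB2V664E line (12.1%), and Egfr was called lower in ErbB2V664E than in dnEGFR controls (-0.45, adjusted p = 0.00731).

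Adam10, a sheddase of betacellulin and EGF precursors, was at 13.6 to 16.9 FPKM in ErbB2V664E controls, 12.2 to 15.6 in the mutants and 16.7 to 17.8 in dnEGFR controls, while dnEGFR mutant 1 was apart at 7.94 from mutants 2 and 3 (18.4 and 15.0). Adam17, the main sheddase of transforming growth factor alpha and heparin-binding EGF-like growth factor, was at 3.98, 4.04 and 4.30 in ErbB2V664E controls and 2.24, 2.87 and 1.53 in mutants. All mutants were below all controls (log2 change -0.69, SE 0.17, limma adjusted p = 0.143), as with Tgfa and Hbegf. Adam17 of dnEGFR mutants and controls overlapped (0.19, adjusted p = 0.987). Bace1, the protease that cuts neuregulin 1, varied widely within groups, from 2.81 to 7.44 in dnEGFR controls and from 5.17 to 9.24 in ErbB2V664E controls, with log2 changes of 0.20 and -0.18 in the dnEGFR and ErbB2V664E mutants.

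Of 23 tested genes for shedding and processing, 0 were called in either mutant comparison, with medians of 0.04 in dnEGFR and -0.07 in ErbB2V664E mutants. In the latter 6 of the 23 were lower without overlap (8.96% of all loci), and 5 had an unadjusted p under 0.05 (12.1% of all loci), against 0 in the dnEGFR line (5.69%). Of 28 tested adaptors and brakes of the receptors, 0 were called in either, with medians of 0.00 and -0.11 and with 0 and 6 at an unadjusted p under 0.05, beside the same shares of all loci. Of the other ligand genes Tmeff1 and Tmeff2, which encode transmembrane proteins with an EGF-like domain, were tested, and 0 of these 2 were called in either mutant comparison. Tmeff1 was lower in all mutants of each line, at 10.7 to 12.9 FPKM against 13.2 to 14.6 in dnEGFR controls (-0.21, limma adjusted p = 0.893) and at 9.88 to 11.9 against 13.1 to 14.8 in ErbB2V664E controls (-0.32, 0.212). Tmeff2 was lower in all ErbB2V664E mutants, as were 8.96% of all loci (-0.38, adjusted p = 0.555). No share of loci lower in all mutants of each line was computed, so the pattern of Tmeff1 is a description only.

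The widest separations among adaptors and brakes were in the ErbB2V664E line. Cbl, a ubiquitin ligase that targets activated EGFR, was at 5.55, 4.21 and 5.09 FPKM in controls and 3.96, 0.0692 and 0.597 in mutants (-1.54, limma adjusted p = 0.195). Socs5, a suppressor of cytokine and EGFR signalling, was at 1.37, 1.13 and 1.36 in controls and 12.1, 11.3 and 11.3 in mutants (2.46, adjusted p = 0.196). In the dnEGFR controls Socs5 itself ran from 0.196 to 14.1, a wide spread among mice of 1 genotype. Lrrn1, a leucine-rich repeat membrane protein, was at 21.6 to 25.5 in controls and at 0.726, 0 and 17.1 in mutants (-2.99, adjusted p = 0.206), where a listed 0 can be a failed assignment. In the dnEGFR line 3 of 28 tested adaptors and brakes were higher in all mutants, where 5.58% of all loci were. Another 1 was lower in all, with no share of all loci given for that direction, so it is a description only. The adaptors Shc1 and Shc2 had the largest changes of the 3, at 0.21 and 0.17 (limma adjusted p 0.964 and 0.966).

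Between the controls of the lines, some genes that process the ligands differed. Furin, Rhbdf1, Adam15, Gorasp2, Cd9 and Cnih2 were higher by 0.41 to 0.89 and Psenen, a subunit of gamma-secretase, was lower by 0.54 in the ErbB2V664E line, so 7 of 23 were called where 20.0% of all loci were. Furin, a convertase that removes prodomains, was at 1.81 to 2.24 FPKM in dnEGFR controls and 3.76 to 4.26 in ErbB2V664E controls (0.73, limma adjusted p = 0.000449). Of the adaptors and brakes 9 of 28 were called, with Lrrn1, Cblb, Sos2, Usp8, Picalm and Magi2 higher and Lrig2, Itch and Ranbp9 lower. Adam15, Cnih2, Shc1 and Picalm were read from loci that join several symbols.

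**Figure D5:**
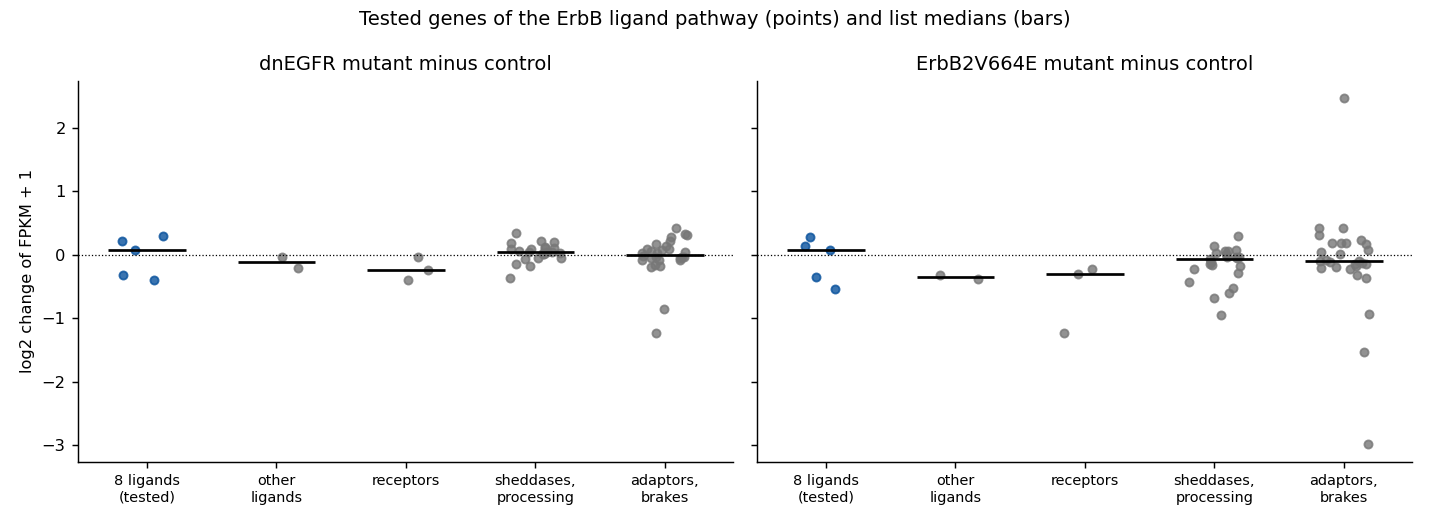
Log2 change of FPKM + 1 (y axis) in dnEGFR and ErbB2V664E mutants against their controls for tested genes of 5 lists (x axis), with a point for each gene and a bar for the list median. Most points lie near 0 in the dnEGFR line, and the 3 widest points of the ErbB2V664E line are Lrrn1 (-2.99), Socs5 (2.46) and Cbl (-1.54), none of them past the threshold.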

How the data were processed

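RNA of subcortical white matter from 12 mice was sequenced after poly(A) selection, in paired ends, per the labels' protocols, with no strand-marking step described, so reads of an overlapping antisense gene may be included. The deposited FPKM values were computed by the authors with StringTie, per the series' design text; HISAT and StringTie are listed, with no version, per the submitters' processing notes, and no source used here gives the build or annotation. FPKM was tested as log2(FPKM + 1), which understates changes of low genes, with limma 3.58.1 in R 4.3.3 (1 mean per group over 12 libraries, variance trend, two-sided, 8 residual and 2.03 prior degrees of freedom), over 13803 loci at 1 FPKM or more in at least 3 libraries. Limma p-values reflect the spread between the 3 mice of a group, pooled over the 4 groups and moderated over loci. The SE of a gene is thus the same in both lines, also where the groups differ in spread. Fragments were estimated from the steps of the lowest FPKM values in 14221 loci with 1 transcript of GENCODE M21. Only 30.9% to 33.2% of the lowest values lay on a step, and 38.9% to 42.4% lay under 1 fragment, so the estimate is rough. Members below the filter had exact permutation tests of mean FPKM. The fit was tested on simulated data.

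The descriptions name for each mutant its littermate control, so litter numbers pair the libraries. Deviations from group means correlated by 0.02, 0.01, 0.03, -0.0036, 0.01 and -0.03 within the 6 pairs. The members and gene lists were chosen with earlier results of these data known. Named were the 8 members, 3 most alike genes each, the receptors, Adam10, Adam17, Bace1, every called pathway gene, and in each mutant comparison the 3 pathway genes with the largest change without overlap. Alternatives were another pseudocount, no filter, rescaling, litter as a block, no trend, 6 libraries only, summed loci and leaving out each library. Figures were drawn with matplotlib 3.10.9 under Python 3.11.15. Protein sequences were not used here.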

Additional observations from a re-analysis of the deposited data

Results flagged for a closer look

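Btc was lower in every dnEGFR mutant and higher in every ErbB2V664E mutant than in the controls of the line. The difference of the effects (ErbB2V664E minus dnEGFR) was 0.112 FPKM, from -0.0543 and 0.058. Swapping mutant and control within the 6 litters gave an exact permutation p of 0.03125, the smallest that its 64 labelings can give, and p of 0.25 for Egf and 1 for Nrg4. Free exact permutation within each line gave 0.005 for Btc, the smallest of its 400 labelings, 0.29 for Egf and 0.99 for Nrg4. All are unadjusted, both tests were chosen after seeing the data, and a full separation of this kind fixes the p at its minimum, so they add nothing to the separation itself. Such opposite separation was found at 0.897% of 5796 low loci, and Btc rested on an estimated 0.6 to 10.7 fragments a library. The cause was not tested.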

How the results depend on the processing

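The 5 tested ligand genes stayed uncalled in both mutant comparisons and in their difference under every alternative run; between controls 2 were called with summed loci, and 0 to 1 when leaving out 1 library. With litter as a replicate block 3, 7 and 4 loci were called in the dnEGFR, ErbB2V664E and difference comparisons, against 13, 38 and 16 without it, and the block changed no call of a ligand gene. With only the 6 libraries of the line there were 22 and 23 calls. Leaving out 1 library gave 17 to 36 calls in the dnEGFR line (25, 36, 31, 24 and 22 without mutants 1 and 3 and controls 1, 2 and 3), 16 to 262 in the ErbB2V664E line (262 without mutant 1, where Tgfa and Hbegf had adjusted p of 0.181 and 0.101; 16 without mutant 2, 24 and 23 without controls 1 and 3), 15 to 42 for the difference (42 without ErbB2V664E mutant 1; 28, 27 and 28 without dnEGFR mutant 3, control 1 and control 3) and 1810 to 2152 between controls (1810 without ErbB2V664E control 3), against 2761. Nrg1 from its locus with reference transcripts, an alternative chosen after seeing the data, turned to 0.17, -0.29 and -0.46 in the dnEGFR, ErbB2V664E and difference comparisons. Nrg2 ran from -0.0234 to 0.32 in ErbB2V664E mutants and from -0.10 to 0.24 in the difference when leaving out 1 library, and its difference was -0.0576 with summed loci. The cause was not tested. No litter block was possible between controls of the lines, whose litters differ. Rescaling moved no ligand gene across the threshold. Depth limits Egf, Btc and Nrg4 most.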
